A study of Mus musculus with 170 samples.

Results

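The thioredoxin and glutathione genes that answer to Nrf2 were followed across lungs and hearts of mice given wildfire smoke particles. They were taken as the rows of the deposited count table whose gene symbol is Txnrd1, Srxn1, Gclc, Gclm, Slc7a11, Gsr, Osgin1, Prdx1, G6pdx or Nfe2l2. All 10 genes were in the table, on 21 of its 30146 probe rows, and the table as a whole held 21450 gene symbols. The probes of a gene were summed, and a level is given as CPM, counts relative to the size of the library after TMM scaling. At the median depth of 6.59 M counts, 1 CPM stands for about 6.59 counts. CPM do not allow for transcript length or for the number of probes, so levels are compared between samples and not between genes.

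The animals were female CD-1 mice, an outbred stock, and their age is not given in the sources used here. Particles of burned red oak, peat, pine needles, pine or eucalyptus, collected from a flaming or a smoldering fire, were given into the airways by oropharyngeal aspiration as 2 mg of particulate matter per mL in 50 µL of saline. Control mice had saline alone or lipopolysaccharide (LPS), the bacterial endotoxin, whose dose is not given in the sources used here. No group carries a named genetic change. The 140 lung libraries came from 4 h and 24 h after exposure, with 6 mice in each smoke or saline group and 4 in each LPS group, and the 30 heart libraries came from 24 h after saline or the red oak and peat smokes, with 6 mice each. Every smoke of a time and tissue was compared with the same 6 saline animals, so the comparisons with saline are not independent of each other.

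Nrf2, the product of Nfe2l2, is a transcription factor that Keap1 marks for breakdown in resting cells. Oxidants and electrophiles, which are plentiful in combustion particles, modify Keap1, and Nrf2 then builds up and binds antioxidant response elements with a small Maf partner. Its targets rebuild the 2 main thiol systems of the cell, thioredoxin and glutathione, and the NADPH that both of them use. In the lung, these genes are known for the response of airway epithelium and macrophages to smoke and other inhaled oxidants. Nrf2 itself is controlled mainly through the stability of the protein, so the level of its mRNA need not follow its activity.

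Promoter sequences are shown for 4 of the genes whose lung mRNA differed most between exposures, as an aid to reading the results on them. They come from RefSeq on GRCm38.p6 and run from 250 bases before to 50 bases after a transcription start, 5′ to 3′ on the strand of the gene. The table of sequences held 8 of the 10 genes, without Gclc and Gsr. Capitals mark the antioxidant response element core, TGACNNNGC, and the AP-1 word, TGANTCA, searched on both strands. Shown are Srxn1 at chr2:152105274-152105573 on the plus strand, Gclm at chr3:122245307-122245606 on the plus strand, Osgin1 at chr8:119436897-119437196 on the plus strand and the middle one of the 3 starts of Txnrd1, at chr10:82858956-82859255 on the plus strand.
Srxn1: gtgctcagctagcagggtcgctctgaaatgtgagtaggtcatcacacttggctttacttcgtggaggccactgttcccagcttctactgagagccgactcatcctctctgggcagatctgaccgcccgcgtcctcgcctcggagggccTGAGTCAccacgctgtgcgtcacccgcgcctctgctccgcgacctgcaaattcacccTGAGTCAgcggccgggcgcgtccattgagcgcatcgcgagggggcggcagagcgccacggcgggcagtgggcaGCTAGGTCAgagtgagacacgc
Gclm: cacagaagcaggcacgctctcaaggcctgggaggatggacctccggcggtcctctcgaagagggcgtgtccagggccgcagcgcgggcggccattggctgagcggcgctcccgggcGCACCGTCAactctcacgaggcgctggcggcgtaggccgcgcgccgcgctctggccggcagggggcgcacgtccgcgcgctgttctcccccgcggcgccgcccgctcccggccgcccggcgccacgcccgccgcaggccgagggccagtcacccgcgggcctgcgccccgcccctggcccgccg
Osgin1: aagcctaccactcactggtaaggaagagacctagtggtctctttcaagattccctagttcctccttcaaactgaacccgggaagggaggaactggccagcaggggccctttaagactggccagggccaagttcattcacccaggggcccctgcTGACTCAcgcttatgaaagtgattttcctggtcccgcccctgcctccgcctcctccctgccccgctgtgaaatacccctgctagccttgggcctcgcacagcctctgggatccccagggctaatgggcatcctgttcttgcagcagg
Txnrd1: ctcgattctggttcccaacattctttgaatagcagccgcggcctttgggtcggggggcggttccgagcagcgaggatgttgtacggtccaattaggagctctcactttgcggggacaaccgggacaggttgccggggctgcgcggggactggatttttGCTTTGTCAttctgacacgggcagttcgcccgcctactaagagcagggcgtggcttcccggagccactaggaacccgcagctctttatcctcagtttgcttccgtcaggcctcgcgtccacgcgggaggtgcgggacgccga
The element core was in 6 of the 8 promoters (Txnrd1, Srxn1, Gclm, G6pdx, Prdx1 and Nfe2l2), against 12.4% of all 32851 promoters of the same length and 14% of the 27025 genes they belong to. It began upstream of the start in Gclm and in Txnrd1, where the other 2 starts had no match, and lay downstream of the start in Srxn1. The AP-1 word was in 3 of the 8 (Srxn1, Osgin1 and Prdx1), against 7.81% of promoters, and in Prdx1 1 of its 2 matches lay inside the match to the element core. Slc7a11 held neither word in this window. Cores that begin TGAG in place of TGAC were not searched, and the Osgin1 AP-1 word and 1 of the 2 in Srxn1 would fit such a core. These matches describe letters and are not evidence of binding.

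The lung and heart labels were checked against tissue markers. In lung smoke groups the mean summed level of 7 lung markers, led by the surfactant and club cell genes, was 34326 to 50228 CPM, and it was 14 to 34.2 CPM in the heart groups. The 8 heart muscle markers summed to 44514 to 56570 CPM in heart groups and to 189 to 702 CPM in lung smoke groups. A library held between 4.43 M and 8.05 M counts. In 6 of the 24 h lung libraries fewer than 13000 genes were detected, with 9886 in the lowest, red oak flame replicate 6. Counts of called members are also given without these 6 sparse libraries where they differ by more than 1.5 times. All libraries of a group differed from each other in at least 13635 genes. The lungs of 4 h were prepared on plate 1 except for 5 of the 6 pine needles smolder lungs. At 24 h the group given pine needles smolder was wholly on plate 1. Each other lung group of 24 h had 1 lung on plate 1 and the rest on plate 2. The burning phases of pine needles thus lay mostly on different plates at both times. All hearts were on plate 2, and the lung tests carry a plate term. Animal numbers of the smoldering groups come before the saline animals and those of the flaming groups after them, so burning phase and animal order cannot be told apart.

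At 4 h after peat flame, 6 of the 10 genes had higher lung mRNA than after saline, the most for any smoke. They were the thioredoxin-side genes Txnrd1 and Srxn1, the glutathione synthesis genes Gclc and Gclm, the cystine importer gene Slc7a11 and Osgin1, while Gsr, Prdx1, G6pdx and Nfe2l2 did not pass the test. Fold changes of the 6 ran from 1.68-fold for Gclm to 6.63-fold for Slc7a11. Of all 14458 genes tested in this comparison, 0.297% were called in either direction, a call being a Benjamini-Hochberg adjusted p under 0.05 in edgeR's quasi-likelihood test. The median log2 change was 1.04 over the 10 genes and -0.04 over all genes tested.

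Txnrd1 encodes thioredoxin reductase 1, the NADPH-using enzyme that keeps thioredoxin reduced. Its lowest, median and highest lung levels were 92.1, 109.4 and 233 CPM after saline and 232, 354 and 438 CPM after peat flame. The groups just overlapped, through the 1 saline lung at 233 CPM, which was saline replicate 1, and 5 of the 6 peat flame lungs were above every saline lung. The log2 change was 1.37 ± 0.22 (SE, n = 6 and 6, edgeR adjusted p = 1.05e-05).

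Srxn1 encodes sulfiredoxin, which repairs over-oxidised peroxiredoxins. After saline it ran from 2.81 through a median of 4.51 to 5.48 CPM, and after peat flame from 5.36 through 18.5 to 33.1 CPM. Only peat flame replicate 5, at 5.36 CPM, was within the saline range. Srxn1 rose by 2.13 ± 0.33 on the log2 scale, 4.39-fold (SE, n = 6 and 6, edgeR adjusted p = 9.9e-06).

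Gclc and Gclm encode the catalytic and the modifier subunit of glutamate-cysteine ligase, the rate-limiting enzyme of glutathione synthesis. Gclc was at 35.6, 60 and 83.7 CPM (lowest, median and highest) after saline and at 95.5, 131.6 and 238 CPM after peat flame. The ranges of Gclc did not overlap, and its log2 change was 1.33 ± 0.23 (edgeR adjusted p = 0.000106). Gclm was at 65.6, 83.2 and 111.1 CPM after saline and at 99.6, 143 and 174 CPM after peat flame, with 5 of 6 lungs above every saline lung. It rose by 0.75 ± 0.16 (edgeR adjusted p = 0.00555).

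Slc7a11 encodes xCT, the light chain of the cystine-glutamate exchanger that brings in cystine for glutathione. It was scarce in saline lungs, at 0 to 2.33 CPM with a median of 1.29, and stood at 0.962 to 17.6 CPM with a median of 6.95 after peat flame. In 5 of 6 peat flame lungs it was above every saline lung, and the remaining one, replicate 5, was inside the saline range. The log2 change was 2.73 ± 0.67 (edgeR adjusted p = 0.0289). This call was lost when any 1 of saline replicates 1 to 5 or of peat flame replicates 3 and 4 was left out, with log2 changes of 2.29 to 2.84 and adjusted p of 0.054 to 0.266, whereas the other 5 calls held in all 19 alternative fits.

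Osgin1, an oxidative stress-induced growth inhibitor gene and a known Nrf2 target, ran from 18.3 through a median of 27.6 to 77.1 CPM after saline and from 75.1 through 117.5 to 155 CPM after peat flame. The saline lung at 77.1 CPM was again replicate 1, and the next highest saline lung was at 29.5 CPM. Osgin1 rose by 1.79 ± 0.40 (edgeR adjusted p = 0.00776). The remaining 4 genes were not called after peat flame. Their log2 changes were 0.08 ± 0.40 for Gsr, glutathione reductase, 0.05 ± 0.22 for Prdx1, the peroxidase that Txnrd1 serves through thioredoxin, 0.47 ± 0.42 for G6pdx, the NADPH-making glucose-6-phosphate dehydrogenase, and -0.08 ± 0.18 for Nfe2l2 (edgeR adjusted p = 1 for each).

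**Figure D1:**
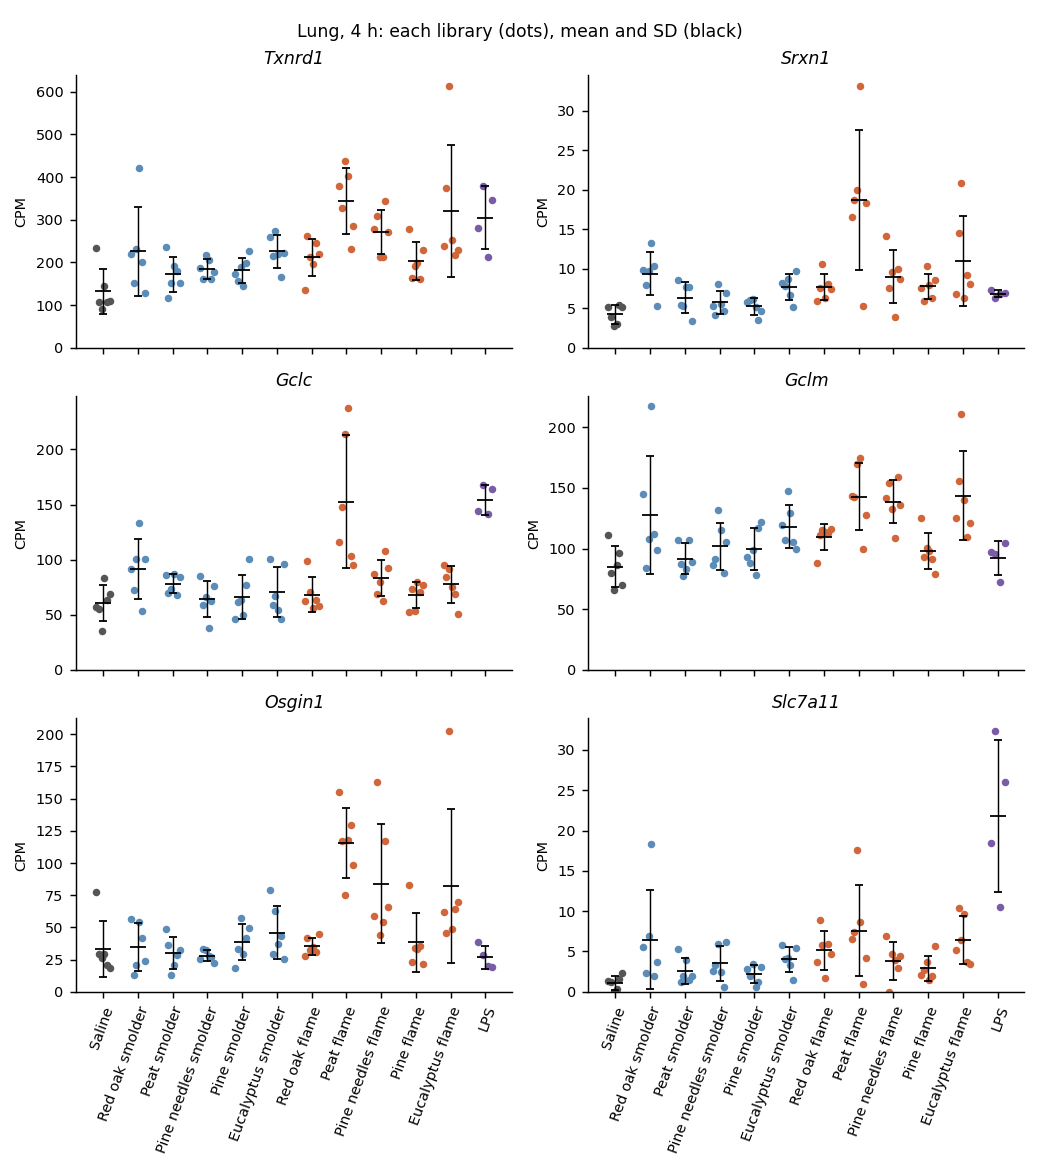
Levels of Txnrd1, Srxn1, Gclc, Gclm, Osgin1 and Slc7a11 in CPM in each lung of the 12 groups at 4 h, one point per mouse, with the mean and SD of each group. Peat flame has the highest smoke mean for all 6 genes except Gclm, whose mean is 144 CPM after eucalyptus flame and 143 CPM after peat flame. Slc7a11 stands highest after LPS, and the Gclc mean is 154 CPM after LPS and 152 CPM after peat flame.

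After eucalyptus flame, Txnrd1 and Gclm were called, where 0.0899% of all genes were called, 0.083% in the upward direction. Txnrd1 was at 239, 374, 613, 253, 218 and 228 CPM in replicates 1 to 6, so 4 of 6 lungs were above every saline lung and replicate 3 was far above its own group. That lung also had the fewest detected genes of its group, 13734 against 15218 to 15514 in the other 5. The saline lung with the highest Txnrd1 and Osgin1, replicate 1, likewise had the fewest of its group, 14108 against 14906 to 15251. The part of this in the levels was not tested. The log2 change of Txnrd1 was 1.27 ± 0.22 (edgeR adjusted p = 0.000178), and without replicate 3 it was 0.99 and still called (adjusted p = 0.0389). Gclm was at 109.5 to 211 CPM with a median of 132.4, again highest in replicate 3, and rose by 0.76 ± 0.16 (edgeR adjusted p = 0.0111). Without eucalyptus flame replicate 3 its adjusted p was 0.172, without saline replicate 3 it was 0.0535 and without saline replicate 6 it was 0.0747, so 1 member remained called in each of these fits.

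Srxn1 and Slc7a11 were above every saline lung in all 6 eucalyptus flame lungs and yet did not pass. Srxn1 stood at 6.29 to 20.9 CPM, with a log2 change of 1.36 ± 0.33 (edgeR adjusted p = 0.0573), and Slc7a11 at 3.39 to 10.4 CPM, with 2.50 ± 0.66 (adjusted p = 0.114). Osgin1 had a log2 change of 1.29 ± 0.39 (adjusted p = 0.226), and 203 CPM of it in replicate 3 set the group mean of 82.2 ± 59.8 CPM (SD, n = 6). A fit of the 4 h lungs alone called 5 members after eucalyptus flame, beside 2.01% of all genes, and DESeq2 called 5 beside 0.415%.

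After pine needles flame only Txnrd1 was called, beside 0.0277% of all genes. It ran from 212 through 275 to 343 CPM, with 4 of 6 lungs above every saline lung, and rose by 1.03 ± 0.22 (edgeR adjusted p = 0.0245). The call was lost without saline replicate 2, 3, 5 or 6 or pine needles flame replicate 5, at adjusted p of 0.0618 to 0.169 and log2 changes of 0.95 to 1.0. Leaving out saline replicate 1 gave 3 called members beside 0.311% of all genes, and the fit without the 6 sparse libraries 3 beside 0.32%. Pine needles flame replicate 2 held the most Osgin1 of its group, 163 CPM, and the fewest detected genes, 13436 against 14678 to 15628. Gclm, with 5 of 6 lungs above every saline lung, had a log2 change of 0.71 ± 0.16 (edgeR adjusted p = 0.0587). Osgin1 had 1.32 ± 0.39 (adjusted p = 0.249) and Srxn1 1.08 ± 0.33 (adjusted p = 0.259). With DESeq2's size factors the median change of all genes after pine needles flame moved by -0.12.

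No member was called after red oak flame or pine flame, where 0.0138% and 0.00692% of all genes were, or after any smoldering smoke, where the shares were 0.0207% for pine needles smolder and 0.0 for the others. Over the 5 smoldering smokes, 0 of 50 member comparisons were called, 13 had an unadjusted p under 0.05 and DESeq2 called 1, where 1.79% to 4.32% of all genes had such a p in a single comparison. Over the 5 flaming smokes, 9 of 50 were called, 24 had an unadjusted p under 0.05 and DESeq2 called 13, where 3.16% to 12% of all genes had such a p. The smoldering group means of Txnrd1 were 172 to 226 CPM and those of Srxn1 5.26 to 9.41 CPM, against saline means of 132.8 ± 52.2 and 4.25 ± 1.17 CPM (SD, n = 6). Srxn1 lay above every 4 h saline lung in 28 of 30 flaming and 19 of 30 smoldering lungs. Red oak smolder had the highest smoldering means of Txnrd1, Srxn1, Gclc, Gclm and Slc7a11, Txnrd1 together with eucalyptus smolder, and 1 lung, replicate 4, held 422 CPM of Txnrd1 and 18.3 CPM of Slc7a11.

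When the 5 flaming smokes were averaged and set against saline at 4 h, Txnrd1 and Srxn1 were called, where 0.0553% of all genes were, 0.0415% in the upward direction. Txnrd1 rose by 0.99 ± 0.18 (edgeR adjusted p = 0.000768) and Srxn1 by 1.26 ± 0.28 (adjusted p = 0.0372). Gclm had a log2 change of 0.56 ± 0.13 (adjusted p = 0.052). For the mean of the smoldering smokes 0 members and 0.0% of all genes were called with edgeR, 5 members and 4.37% of all genes had an unadjusted p under 0.05, and DESeq2 called 0 members. There Txnrd1 had a log2 change of 0.56 ± 0.17 and Srxn1 of 0.71 ± 0.27.

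**Figure D2:**
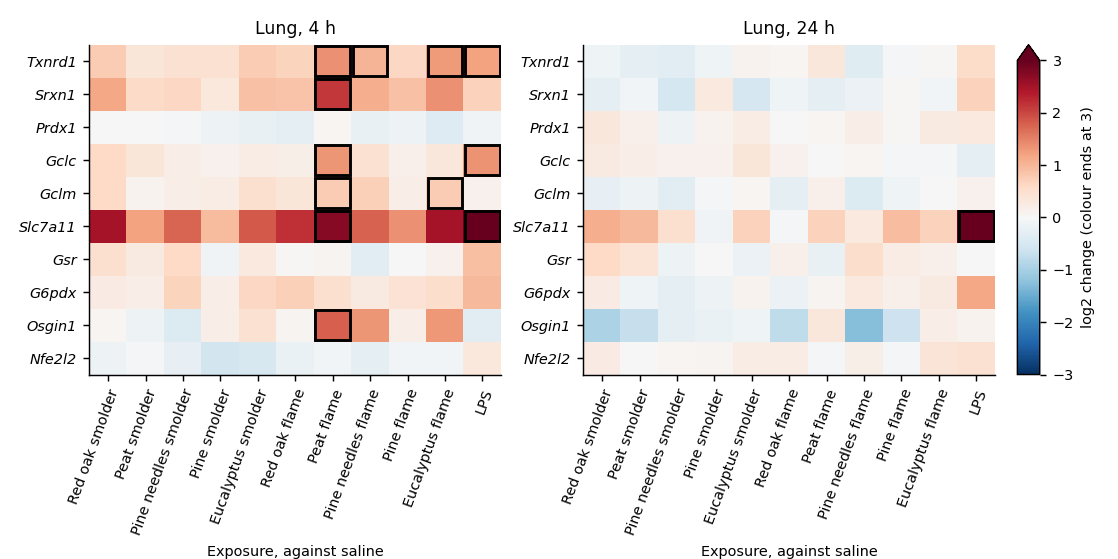
Log2 change of each of the 10 genes against saline of the same time, for the 10 smokes and LPS at 4 h and 24 h in lung, with black frames around changes called at an adjusted p under 0.05. The frames at 4 h lie in the columns of peat flame, eucalyptus flame, pine needles flame and LPS, and at 24 h the single frame is Slc7a11 after LPS. Colours end at a log2 change of 3.

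Averaged over the fuels, the direct comparison of burning phases at 4 h called 3 members, all higher with flaming particles, where 2.39% of all genes were called. Osgin1 ran from 21.5 through 56.6 to 203 CPM in the 30 flaming lungs and from 12.8 through 32.5 to 79 CPM in the 30 smoldering lungs. The ranges overlapped widely, 9 flaming lungs were above every smoldering lung, and the log2 difference was 0.90 ± 0.18 (edgeR adjusted p = 0.00116). Txnrd1 differed by 0.43 ± 0.10 (adjusted p = 0.00586) and Srxn1 by 0.55 ± 0.15 (adjusted p = 0.0229). The Srxn1 call was lost with DESeq2's size factors, at a log2 difference of 0.50 and an adjusted p of 0.0545. Among the 55 lungs of plate 1 alone, 30 flaming and 25 smoldering, the differences in mean log2(CPM + 1) were 0.81 for Osgin1, 0.45 for Srxn1 and 0.40 for Txnrd1. Gclm differed by 0.24 ± 0.07 (adjusted p = 0.0606), and Gsr had a difference of -0.32 ± 0.18 (adjusted p = 0.314), with 6 flaming lungs below every smoldering lung.

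Within single fuels, 3 of 10 members were called between flaming and smoldering peat particles, beside 0.0899% of all genes. In the other 4 fuels edgeR called 0 members, and 0.00692% (red oak and pine) or 0.0138% (pine needles and eucalyptus) of all genes. Of the members, 0, 1, 4 and 3 had an unadjusted p under 0.05 in red oak, pine, pine needles and eucalyptus, where 5.8%, 2.8%, 22.6% and 2.21% of all genes did, and DESeq2 called 1 in pine needles and 0 in the others. The direction was not the same in every fuel. Flaming minus smoldering was above 0 for 8 members in peat, 7 in pine, 7 in eucalyptus, 6 in pine needles and only 2 in red oak. The median log2 differences of the members were 0.80, 0.14, 0.34, 0.13 and -0.24 in that order. In peat, Osgin1 ran from 75.1 to 155 CPM with flaming and from 13.4 to 49 CPM with smoldering particles, and these ranges did not overlap. Osgin1 was higher by 1.94 ± 0.40 (edgeR adjusted p = 0.00606), Srxn1 by 1.55 ± 0.32 (adjusted p = 0.00666) and Txnrd1 by 1.0 ± 0.21 (adjusted p = 0.0102) on the log2 scale. Gclc also had ranges that did not overlap, 95.5 to 238 against 67.6 to 86.6 CPM, and a difference of 0.96 ± 0.23 (adjusted p = 0.0501). In pine needles Osgin1 had a larger error, 1.72 ± 0.44 (adjusted p = 0.156), and in eucalyptus it had 0.83 ± 0.39. A test of whether the phase difference itself varied between the 5 fuels called 0 members, and 0.0207% of all genes, and 5 members and 2.3% of all genes had an unadjusted p under 0.05. The peat difference is thus not shown to be larger than that of the other fuels.

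A test of any difference among the 10 smokes at 4 h called 5 of the 10 members, Osgin1, Gclc, Srxn1, Txnrd1 and Gclm, where 0.609% of all genes were called. Their edgeR adjusted p were 1.77e-05, 0.00069, 0.00128, 0.00155 and 0.0062. In the order of group means, neighbours mostly lay closer together than the larger SD of the pair. At 4 h the steps wider than both SDs were from peat flame down to the next group for Gclc, by 60.5 CPM, from LPS to the next for Slc7a11, by 14.2 CPM, and from LPS to the next for Nfe2l2, by 11.9 CPM. At 24 h they were the steps from LPS to the next group for Slc7a11, by 11 CPM, and for G6pdx, by 18.5 CPM.

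Across the 11 lung groups of 4 h without LPS, the group means of some members followed each other. On log2(CPM + 1) means, Pearson's r of Txnrd1 was 0.95 with Gclm, 0.92 with Srxn1 and 0.88 with Osgin1, and -0.19 with Gsr, -0.33 with Prdx1 and -0.04 with Nfe2l2. Among 10397 genes averaging 5 CPM or more, those most like Txnrd1 were Atg2a (0.95), Gclm (0.95), Abcc1 (0.93), which encodes a glutathione conjugate exporter, and Srxn1 (0.92). Those most like Srxn1 were Fosl1 (0.94), Txnrd1 (0.92), Hmox1 (0.92), which encodes haem oxygenase 1, and Abcc1 (0.92). For Gclc they were the heat shock genes Hspa1a (0.93) and Hspa1b (0.89) with Hmox1 (0.92) and Sfn (0.92). The groups share TMM scaling and, but for 5 lungs, a plate, and these values describe 11 points. Slc7a11, with a mean under 5 CPM, was left out.

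Other Nrf2 pathway genes were taken from a list of 59, of which 57 passed the filter on low counts in lung. After peat flame 1 of them was higher, Hmox1, at 72.3 ± 36.9 against 6.1 ± 2.7 CPM (SD, n = 6 and 6), a log2 change of 3.56 ± 0.55 (edgeR adjusted p = 9.9e-06), and 0 were lower. After eucalyptus flame 1 was higher, Nqo1, the quinone reductase gene, by 2.45 ± 0.46 (adjusted p = 0.00216). None of the list was called after any of the other 8 smokes at 4 h. In the comparison of flaming with smoldering particles 3 were higher, Hmox1 by 1.16, Maff by 0.70 and the thioredoxin gene Txn1 by 0.47, and 1 was lower, the glutathione peroxidase gene Gpx2, which fell by 0.58 on the log2 scale. The shares of all genes called were 0.297% after peat flame, 0.0899% after eucalyptus flame and 2.39% between flaming and smoldering particles. Median log2 changes of the list were 0.14 after peat flame and 0.21 after eucalyptus flame, against -0.04 and -0.0 over all genes.

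LPS served as an inflammatory control without combustion particles. At 4 h it called 3 of the 10 members, Slc7a11, Gclc and Txnrd1, all higher, where 5.48% of all genes were called higher and 3.49% lower, 8.98% in all. Slc7a11 was at 18.4, 32.3, 10.5 and 26 CPM in the 4 LPS lungs, each above every saline lung, and rose by 4.25 ± 0.72 (SE, n = 4 and 6, edgeR adjusted p = 3.5e-06). Gclc was at 144, 167, 141 and 164 CPM, also each above every saline lung, and rose by 1.35 ± 0.25 (adjusted p = 2.46e-05). Txnrd1 was at 281, 379, 214 and 347 CPM, with 3 of 4 above every saline lung, and rose by 1.20 ± 0.23 (adjusted p = 7e-05).

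The modifier subunit did not pass with the catalytic one after LPS: Gclm was at 92.5 ± 14.1 CPM against 84.9 ± 16.9 (SD, n = 4 and 6), a log2 change of 0.12 ± 0.18 (edgeR adjusted p = 0.792). Osgin1 was at 26.7 ± 9.18 CPM, a change of -0.32 ± 0.44 (adjusted p = 0.772). Srxn1 was at 6.86 ± 0.426 CPM, above every saline lung in all 4, with 0.69 ± 0.36 (adjusted p = 0.28). Gsr was at 566 ± 187 CPM with 0.91 ± 0.44 (adjusted p = 0.227) and G6pdx at 38.8 ± 13.6 CPM with 0.98 ± 0.46 (adjusted p = 0.201). A fit of the 4 h lungs alone, or one without the 6 sparse libraries, called 5 members, beside 17.1% and 14.8% of all genes. LPS and peat flame were not tested against each other, and both were measured against the same saline lungs.

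Of the other pathway genes, 11 were higher and 2 lower 4 h after LPS, where 5.48% of all genes were called higher and 3.49% lower. The 4 with the smallest p were Mafk, a small Maf partner of Nrf2, higher by 1.05, Fth1, ferritin heavy chain, by 0.87, Slc3a2, the heavy chain that pairs with Slc7a11, by 0.90 ± 0.18, and Sod2, mitochondrial superoxide dismutase, by 2.10 on the log2 scale. The 12 neutrophil markers summed to 933 ± 521 CPM after LPS against 178 ± 80.2 CPM after saline at 4 h, and to 532 ± 116.6 against 121.6 ± 30.6 CPM at 24 h. Their part in the LPS changes was not tested. In bulk tissue a change in the number of cells of a type and a change in the RNA per cell cannot be told apart.

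Sums of cell type markers are given beside the smoke results, with no test of their differences. The 10 alveolar macrophage markers summed to 407 to 3125 CPM in saline lungs at 4 h, with a mean of 1802 ± 949, and the means of the 10 smokes were 582 to 1499 CPM, with 1040 ± 476 after peat flame and 621 ± 166 after eucalyptus flame, and the pine needles flame lungs ran from 402 to 1157 CPM. The neutrophil sum was 104.3 to 202 CPM in the smoke groups, 202 ± 99.7 after peat flame. Most of the macrophage sum was Chil3, at 1605 CPM after saline and 863 CPM after peat flame, and the marker Krt79 was at 0 in all 6 saline lungs and in 4 of 6 peat flame lungs. No neutrophil marker was at 0 throughout a lung group of 4 h. The 7 alveolar type 1 markers, led by Ager, summed to 738 ± 282 CPM after saline, 780 ± 211 after peat flame, 1336 ± 597 after pine needles flame and 1285 ± 933 after eucalyptus flame (SD, n = 6), against 629 to 899 CPM in the means of the other 7 smokes. In 7 of the 12 lung groups of 4 h this sum was highest in the lung with the fewest detected genes, among them saline replicate 1 at 1299 CPM, eucalyptus flame replicate 3 at 3167 CPM and pine needles flame replicate 2 at 2405 CPM. No alveolar type 1 marker was at 0 throughout a lung group. The part of these cells in the member changes was not tested.

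By 24 h, no member was called against saline for any of the 10 smokes. Over flaming and smoldering smokes alike 0 of 50 member comparisons were called by edgeR and by DESeq2, and 3 and 1 had an unadjusted p under 0.05, where 2.28% to 20.6% and 1.65% to 12.9% of all genes did. The background of called genes was 0.0692% for peat flame, 1.75% for red oak flame, 0.0207% for pine needles smolder, 0.00692% for red oak smolder, peat smolder, pine needles flame and eucalyptus flame, and 0.0 for the other 3. Without the 6 sparse libraries 1 member comparison was called, beside 0.962% of all genes. Srxn1 after peat flame was at 2.21 to 6.07 CPM at 24 h, overlapping the saline range of 3.14 to 6.06 CPM. The test among the 10 smokes at 24 h called 1 member, Osgin1 (edgeR adjusted p = 0.00972), where 18.0% of all genes were called, and 0 members without the sparse libraries, beside 10.4%. Flaming against smoldering particles at 24 h gave 0 called members with edgeR and DESeq2, 1 member and 6.27% of all genes at an unadjusted p under 0.05, and 0.111% of all genes called.

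The change of an effect between the times was tested as such, the effect at 24 h minus the effect at 4 h. For peat flame Srxn1 was called, with a difference of -2.43 ± 0.47 on the log2 scale (edgeR adjusted p = 0.00697), where 0.0622% of all genes were called, and DESeq2 called 3 members beside 0.145%. Its levels were 18.7 ± 8.84 CPM at 4 h and 3.69 ± 1.5 CPM at 24 h, with saline at 4.25 ± 1.17 and 4.46 ± 0.955 CPM (SD, n = 6 each). Gclc had -1.33 ± 0.32 there (adjusted p = 0.0939). Hmox1 moved by -3.62 ± 0.75 in the same comparison.

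For pine needles flame 3 members were called, Osgin1 at -2.61 ± 0.56, Txnrd1 at -1.39 ± 0.30 and Gclm at -1.12 ± 0.23 (edgeR adjusted p = 0.0276 for each), where 0.567% of all genes were. An unadjusted p under 0.05 was found for 4 of the 10 members and for 33.5% of all genes. Osgin1 was at 83.9 ± 46.3 CPM at 4 h and at 18.7 ± 3.22 CPM at 24 h, when the saline mean was 46.1 ± 35.3 CPM with 1 lung at 112.1 CPM. Txnrd1 stood at 271 ± 51.9 and then 95.9 ± 4.52 CPM, and Gclm at 138.7 ± 17.8 and then 64.4 ± 6.59 CPM. With DESeq2's size factors, which moved the median of all genes by 0.30 here, the differences were -2.22, -1.06 and -0.81 and all 3 calls were lost (adjusted p = 0.0513, 0.093 and 0.093). For the other 8 smokes 0 members were called with edgeR or DESeq2, 1 to 4 of each had an unadjusted p under 0.05, as had 1.03% to 12.1% of all genes, and 0.0% to 0.968% of all genes were called. Without the 6 sparse libraries the 4 called member differences became 7, and the share of all genes rose from 0.163% to 3.22%. Saline lungs of 24 h and 4 h differed in 0 members and 0.0% of all genes with edgeR, with 1 member at an unadjusted p under 0.05 and 0 called by DESeq2. All 6 saline lungs of 4 h were on plate 1 and 5 of the 6 of 24 h on plate 2. A difference between the times is thus hard to separate from plate.

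**Figure D3:**
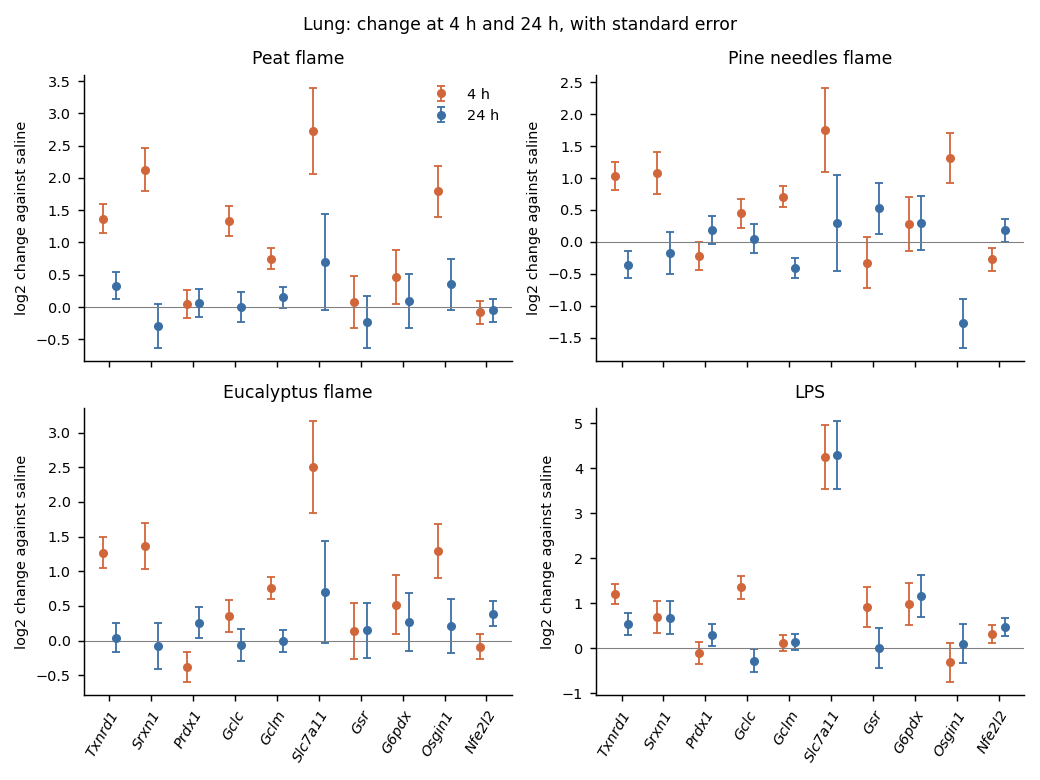
Log2 change against saline of the same time, with its SE, at 4 h and 24 h in lung for the 10 genes after peat flame, pine needles flame, eucalyptus flame and LPS. Srxn1 after peat flame goes from 2.13 at 4 h to -0.30 at 24 h, whereas Slc7a11 after LPS is at 4.25 and 4.29.

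Slc7a11 was again far above saline 24 h after LPS. It was at 12, 17.7, 11.3 and 8.42 CPM in the 4 LPS lungs and at 0 to 2.06 CPM in saline lungs, 3 of which had 0, and rose by 4.29 ± 0.75 (edgeR adjusted p = 4.23e-06). It was the only member called, where 12.1% of all genes were. The difference between its effects at the 2 times was 0.04 ± 0.72 (adjusted p = 0.994). Gclc was at 26.7 to 40.7 CPM against 33.9 to 60.8 CPM after saline, and its effect at 24 h minus that at 4 h was -1.62 ± 0.36 (adjusted p = 0.00947), where 0.581% of all genes were called. G6pdx was at 27.4 to 47.9 CPM, above the saline range of 11.3 to 25.2 CPM in all 4 lungs, with 1.16 ± 0.46 (adjusted p = 0.0858). A fit without the sparse libraries called 2 members, beside 18.4% of all genes. Among the other pathway genes 11 were higher and 7 lower, where 7.58% of all genes were called higher and 4.51% lower. The 4 with the smallest p were Fth1 at 1.83, Ephx1, an epoxide hydrolase gene, at -1.43, Mafk at 0.96 and the peroxiredoxin gene Prdx5 at 2.51 on the log2 scale.

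In 24 h hearts G6pdx rose after red oak flame and peat smolder and Prdx1 fell after red oak flame, while Txnrd1, Srxn1, Gclc, Gclm, Gsr, Osgin1 and Nfe2l2 were not called for any smoke. Slc7a11 was at 0 in 14 of 30 hearts and did not pass the filter on low counts, so 9 members were tested. The background of called genes was 12% for red oak flame (2 members), 4.29% for peat smolder (1 member), 0.0447% for peat flame (0 members) and 0.0 for red oak smolder (0 members).

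G6pdx makes NADPH in the first step of the pentose phosphate pathway. It was at 3.40 to 4.63 CPM in saline hearts with a median of 3.90, at 5.74 to 13.6 CPM with a median of 7.53 after red oak flame and at 6.17 to 9.09 CPM with a median of 7.61 after peat smolder. Neither smoke overlapped with saline. The log2 changes were 1.06 ± 0.20 (edgeR adjusted p = 0.00201) and 0.92 ± 0.20 (adjusted p = 0.0105), both called in all 9 alternative fits. After peat flame G6pdx was at 4.92 to 6.86 CPM, also above every saline heart, with 0.59 ± 0.20 (adjusted p = 0.32), and after red oak smolder it had 0.35 ± 0.21. For the mean of the 4 smokes it rose by 0.73 ± 0.17 (adjusted p = 0.0231), the only member called where 2.33% of all genes were, and 21 of 24 smoke hearts were above every saline heart. Flaming and smoldering particles differed in 0 members in heart with edgeR and DESeq2, 0 at an unadjusted p under 0.05, and in 0.0358% of all genes.

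Prdx1 was at 622 to 977 CPM in saline hearts with a median of 825 and at 470 to 659 CPM with a median of 622 after red oak flame. Of the 6 red oak flame hearts 3 were below every saline heart, and Prdx1 fell by 0.44 on the log2 scale (SE 0.12, edgeR adjusted p = 0.0206). Without saline replicate 1 the change was -0.38 (adjusted p = 0.0681) and without saline replicate 2 it was -0.41 (adjusted p = 0.0503), so the call rests on these hearts. Prdx1 was at 668 ± 105.7 CPM after peat smolder, 708 ± 109.3 after peat flame and 791 ± 118.7 after red oak smolder (SD, n = 6). Near-identical Prdx1 pseudogenes could share counts with it. Nfe2l2 was at 13.4 ± 2.14 CPM after saline and 17.1 ± 2.05 CPM after red oak flame, with 0.35 ± 0.13 (adjusted p = 0.0694).

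Txnrd1, Srxn1, Gclc, Gclm and Osgin1, all called in lung after peat flame, had similar means in the 5 heart groups. These were 69.5 to 82.2 CPM for Txnrd1, 4.32 to 5.18 for Srxn1, 5.69 to 7.28 for Gclc, 32.3 to 33.3 for Gclm and 1.17 to 1.49 for Osgin1. No heart was taken at 4 h, so a rise before 24 h could not be seen. Of the other pathway genes, 51 were tested in heart, and after red oak flame 4 were higher and 9 lower, where 5.33% of all genes were called higher and 6.69% lower. Among them were the superoxide dismutase genes Sod1 at -0.76 and Sod3 at 1.08, Prdx2 at -0.54 and Ugdh at 0.50 on the log2 scale. After peat smolder the called ones were Txn1 at -0.48, Ugdh at 0.44 and Sod3 at 0.94, where 4.29% of all genes were called. Marker sums moved too. The 8 heart muscle markers were at 56570 ± 4703 CPM after saline, 44514 ± 6565 after red oak flame and 47939 ± 4560 after peat smolder, the 7 endothelial markers at 350 ± 72.9, 488 ± 66.8 and 485 ± 78.8 CPM and the 8 monocyte markers at 24.6 ± 5.75, 46.8 ± 13.5 and 47.6 ± 11.2 CPM (SD, n = 6). Of the 8 monocyte markers, 5 averaged under 1 CPM in each of these groups. Among them, 1 was at 0 in every saline heart, and 2 were at 0 in every heart after red oak flame, as after peat smolder. The part of the marker sums in the G6pdx and Prdx1 changes was not tested.

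**Figure D4:**
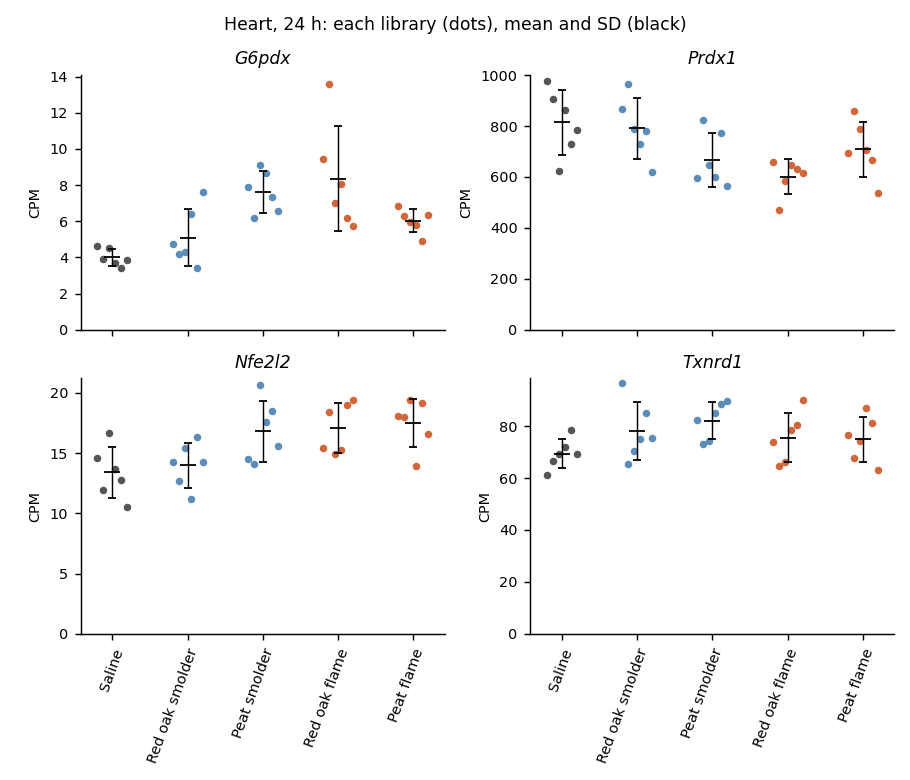
Levels of G6pdx, Prdx1, Nfe2l2 and Txnrd1 in CPM in each of the 6 hearts of the 5 heart groups at 24 h, with the mean and SD of each group. G6pdx is above the saline range of 3.40 to 4.63 CPM in every heart given red oak flame, peat smolder or peat flame, and Prdx1 is lowest after red oak flame.

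The levels of the members also differed between the organs. Set side by side in 1 fit of the 6 saline hearts and 6 saline lungs of 24 h, 8 of 9 members were called, where 76.5% of all genes were, so that the count is close to the background. Both organs carry the animal numbers of the same 6 mice, and this fit did not use the pairing. A fit with the animal as a block also called 8 members. CPM in this paragraph, unless stated, are scaled over these 12 libraries and are not those of the fits above. Prdx1 was higher in heart, at 742 to 1173 against 264 to 354 CPM, by 1.64 ± 0.16 on the log2 scale (edgeR adjusted p = 4.11e-07). Srxn1 was higher by 0.88 ± 0.29 (adjusted p = 0.0123) and Gsr by 0.76 ± 0.30 (adjusted p = 0.0336). In the separate fits of each organ, the 24 h saline lung means were 4.46 CPM for Srxn1 and 150.91 CPM for Gsr. The heart group means there were 4.32 to 5.18 CPM and 153.88 to 173.04 CPM. The Srxn1 and Gsr differences thus depend on the scaling across organs, and no fit without such scaling was made. Osgin1 was the lowest relative to lung, at 0.976 to 1.77 against 10.7 to 84 CPM, with -4.59 ± 0.50 (adjusted p = 1.08e-06). Gclc had -1.89 ± 0.21, G6pdx -1.47 ± 0.26, Nfe2l2 -0.89 ± 0.18 and Gclm -0.70 ± 0.17, each with the 6 hearts below the 6 lungs (adjusted p = 9.35e-07, 0.000113, 0.000304 and 0.00199). Txnrd1 had -0.16 ± 0.19 (adjusted p = 0.427).

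The assay reads most of these genes with more than 1 probe, and the probes of a gene did not always give the same change. Tested alone, with p adjusted over all probe rows, the Txnrd1 probe 72590 rose by 1.41 after peat flame at 4 h (edgeR adjusted p = 0.000543), while probe 31483 had 1.77 ± 0.53 (adjusted p = 0.227) and probe 70547 had 1.12 ± 0.44 (adjusted p = 0.663). Both Srxn1 probes rose, 30173 by 1.87 ± 0.42 and 75314 by 2.59 ± 0.49 (adjusted p = 0.0108 and 0.00119). For Gclc probe 68462 was called at 1.22 ± 0.22 and probe 31268 had 1.75 ± 0.64 (adjusted p = 0.000572 and 0.528), and for Osgin1 probe 30257 was called at 1.95 ± 0.44 and probe 79857 had 1.18 ± 0.41 (adjusted p = 0.0121 and 0.447). The Gclm call rests on the sum: its probes had 1.18 ± 0.33, 0.70 ± 0.36 and 0.33 ± 0.48, and none passed (the lowest adjusted p = 0.13).

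Between flaming and smoldering particles at 4 h the probes of a gene differed more. Txnrd1 probe 31483 was higher by 1.10 ± 0.24 and probe 72590 by 0.54 ± 0.12 (edgeR adjusted p = 0.00428 each), and probe 70547 had -0.05 ± 0.20 (adjusted p = 0.902). Srxn1 probe 75314 was higher by 1.10 ± 0.21 (adjusted p = 0.00119) and probe 30173 had 0.25 ± 0.18 (adjusted p = 0.44). For Gclm probe 29258 was higher by 0.80 ± 0.15 (adjusted p = 0.000677) and probe 72619 had -0.05 ± 0.16. For Nfe2l2, where the summed gene was at 0.15 ± 0.08, probe 78402 was higher by 0.66 ± 0.17 (adjusted p = 0.0191) and probe 30497 had -0.06 ± 0.13. Where each probe lies in its transcript, and whether it covers all transcripts of its gene, is not given in the sources used here.

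**Figure D5:**
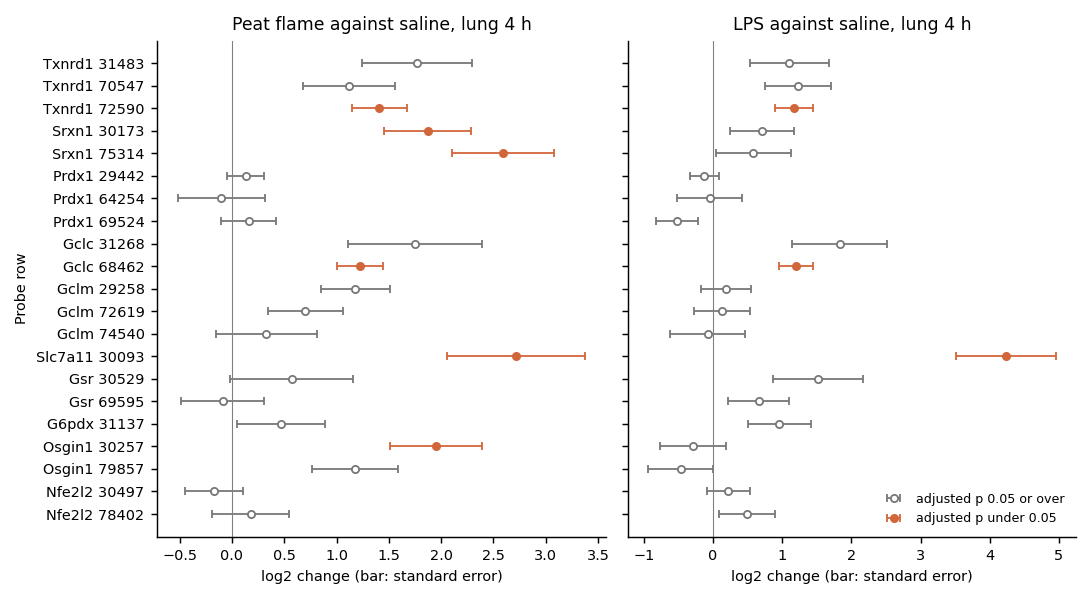
Log2 change against saline at 4 h, with its SE, of each of the 21 probe rows after peat flame and after LPS, filled where the adjusted p over all probe rows was under 0.05. The filled peat flame points are 1 Txnrd1, 2 Srxn1, 1 Gclc, 1 Osgin1 and the single Slc7a11 probe, and the 3 Gclm probes are open.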

How the data were processed

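The values analysed are the counts the authors deposited, whole numbers for each probe row and library. Per the submitters' processing notes, Bowtie and DESeq2 were used, with versions, settings and genome build not given in the sources used here. Per the labels, the assay was TempO-Seq, which counts ligated probe pairs, and a QuantSeq 3' kit is named as well, so the chemistry is stated in 2 ways. No column was left out.

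Probes were summed per symbol. Counts were tested with edgeR 4.0.16 in R 4.3.3, using TMM, filterByExpr, trended dispersion and the robust quasi-likelihood F test. One fit held the 140 lung libraries with group and plate, 1 the 30 hearts, and 1 the 12 saline libraries of 24 h. P values were Benjamini-Hochberg adjusted over 14458, 11179 and 11821 genes, with calls under 0.05. Standard errors came from the change on the log2 scale over the root of F. The steps were tested on simulated data. Alternatives were DESeq2 1.42.0, its size factors in edgeR, no filter, no plate term, each time alone, single probes, detected genes as a covariate, the 6 sparse libraries left out, and each saline or LPS library left out. Leaving out exposed lungs of the 3 smokes with called members was added after seeing the data. Replicates are separate mice by the numbers in the titles.

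The heart and lung of a saline mouse carry the same animal number. Deviations of the 2 organs from their group means correlated at 0.08, 0.01, 0.14, -0.04, 0.08 and 0.11 for the 6 mice. Between organs of different mice the correlations ran from -0.22 to 0.18.

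All 10 members are reported in each comparison, with at most 4 called genes of smallest p from the list of 59 other pathway genes. For Txnrd1, Srxn1 and Gclc the 4 most similar genes are named. The members, lists and tests were chosen with earlier results of these data known. Promoters are from RefSeq on GRCm38.p6.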

Additional observations from a re-analysis of the deposited data

Results flagged for a closer look

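In each group of 4 to 6 libraries the highest and the lowest level of each gene was compared with its neighbours, and 26 of 290 sets of libraries held a value far from the rest of its group. Chance alone flags about 1 set in 20.

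In lungs at 4 h, red oak smolder replicate 4 stood apart for Txnrd1 at 422.3 CPM and for Slc7a11 at 18.3 CPM, and saline replicate 1 for Txnrd1 at 233.3 CPM. Red oak flame replicate 1 had the lowest Gclm, 87.8 CPM, and the highest Prdx1, 689.7 CPM, and replicate 2 the highest Gclc, 98.7 CPM. Osgin1 stood apart in saline replicate 1 at 77.1 CPM, in pine flame replicate 1 at 83 CPM and in eucalyptus flame replicate 3 at 202.7 CPM. G6pdx did so in eucalyptus flame replicate 2 at 37.9 CPM.

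In lungs at 24 h, several of these values lay in libraries with fewer than 13000 detected genes. Red oak flame replicate 6 had the highest Txnrd1, 235.4 CPM, the highest Nfe2l2, 79.2 CPM, and the lowest Prdx1, 107.97 CPM. Pine flame replicate 6 had the highest Gclm, 109.6 CPM, the highest Osgin1, 69.4 CPM, and the lowest G6pdx, 6.04 CPM. Pine smolder replicate 4 had the highest Gclm, 117.4 CPM, and eucalyptus flame replicate 5 the lowest Srxn1, 0.0 CPM. Libraries above that number of genes also stood apart. Saline replicate 6 had Gclc at 60.8 CPM and saline replicate 2, with the fewest detected genes of its group at 13196, Osgin1 at 112.1 CPM. Slc7a11 was at 2.58 CPM in peat smolder replicate 4 and at 1.95 CPM in pine needles flame replicate 3. Srxn1 was lowest in LPS replicate 4 at 3.89 CPM.

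In hearts, Slc7a11 was at 0.622 CPM in saline replicate 3 and at 0.282 CPM in peat smolder replicate 5, levels of a few counts. Osgin1 was at 2.47 CPM in peat smolder replicate 2.

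The effect of an exposure differed between the times in 5 cases, tested as the effect at 24 h minus that at 4 h on the log2 scale. These were Srxn1 after peat flame at -2.43, Osgin1, Txnrd1 and Gclm after pine needles flame at -2.61, -1.39 and -1.12, and Gclc after LPS at -1.62.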

How the results depend on the processing

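At 4 h, 9 member changes were called over the 10 smokes, and DESeq2 called 14, a fit with detected genes as a covariate 18, and a fit of 1 time only 15. The share of all genes called over the same comparisons was 0.0456%, 0.124%, 2.08% and 0.921%, and percentages in brackets are such shares. Leaving out 1 saline library gave 6 to 13 (0.0304% to 0.117%). For peat flame, leaving out 1 library gave 5 to 6 of the 6 calls (0.201% to 0.325%). For eucalyptus flame, with 2 called, DESeq2, the covariate and 1 time only each gave 5 (0.415%, 8.2% and 2.01% of all genes). There the fit without the sparse libraries gave 4 (0.834%), and leaving out 1 library 1 to 4 (0.0277% to 0.519%). For pine needles flame, with 1 called, DESeq2 gave 2 (0.0899%) and the fit without the sparse libraries 3 (0.32%). The covariate and 1 time only gave 4 there (8.38% and 6.18%), and leaving out 1 library 0 to 3 (0.00692% to 0.311%). For LPS at 4 h, with 3 called, the fit without the sparse libraries and 1 time only each gave 5 (14.8% and 17.1%). For LPS at 24 h, with 1 called, these libraries left out gave 2 (18.4%) and the covariate 3 (19.9%). Flaming against smoldering particles at 4 h called 3, and 5 with the covariate (12.8%). Over the smokes at 24 h, with 0 called, the fit without the sparse libraries gave 1 (0.962%). Osgin1 alone differed among the smokes at 24 h (18.0% of all genes), and without a plate term 2 members did (18.1%). It was 0 members without the sparse libraries, with the covariate or with 1 time only (10.4%, 0.968% and 0.64% of all genes). For changes of the effect with time, with 4 called, DESeq2 size factors gave 1 (0.244%), the fit without the sparse libraries 7 (3.22%) and the covariate 15 (3.12%). In heart, with 3 called, leaving out 1 saline library gave 2 to 4 (1.91% to 4.94%), the added one being Nfe2l2 after red oak flame without saline replicate 3. The cause of these shifts was not tested. With the animal as a replicate block, heart against lung called 8 members, as without the block.

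Each called member change was checked under several alternatives, so the counts here are of checks and not of changes. Under another setting, 217 checks kept direction and side of the threshold and 4 lost the call. With 1 library left out, 17 checks lost the call and all others kept it. These losses were confined to Slc7a11 after peat flame, Txnrd1 after pine needles flame, Gclm after eucalyptus flame and Prdx1 in heart after red oak flame. With 1 probe alone, 35 checks lost the call and 29 held. The Txnrd1 probe 70547 turned the direction in 2 cases, at -0.05 for flaming against smoldering particles and 0.06 for the change with time after pine needles flame. Exposed libraries of groups other than the 3 named flaming smokes were not left out in turn. Depth limits Slc7a11, at 1.13 CPM in saline lungs of 4 h.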

Other observations

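The ratio of 2 probes of a gene within 1 library does not depend on how libraries are scaled. It was computed as a log2 ratio, with 0.5 added to each count, for 14 pairs of probes in the 30 flaming and 30 smoldering lungs of 4 h. These pairs were looked at after the single probe results had been seen, and no test was made. Txnrd1 probe 31483 over probe 70547 was at -1.06 ± 1.04 with flaming and -2.08 ± 0.59 with smoldering particles (SD, n = 30 each). Gclm probe 29258 over probe 72619 was at -1.41 ± 0.79 and -2.20 ± 0.34. Srxn1 probe 30173 over probe 75314 was at 0.43 ± 0.75 and 1.32 ± 0.83, and Nfe2l2 probe 30497 over probe 78402 at 1.03 ± 0.77 and 1.71 ± 0.60. Without the pine needles groups, of which the smoldering one was mostly on the other plate, the differences between the phases were 0.75 for the Txnrd1 pair, 0.61 for Gclm, -0.80 for Srxn1 and -0.53 for Nfe2l2. The pairs named so far had the largest differences between the phases of the 14. With the pine needles groups, the other pairs ran from -0.59 for Prdx1 probe 64254 over probe 69524 to 0.46 for Txnrd1 probe 31483 over probe 72590, flaming minus smoldering. The smallest shift was 0.19, for Gsr.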
